A study of Mus musculus with 20 samples.

Results

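The genes described here are 38 developmental transcription factor genes outside the Hox clusters that are textbook targets of Polycomb repression, and the question was where chromatin at them was accessible in epidermal cells. The measurements are 10 lists of ATAC-seq peaks, regions in which the Tn5 transposase could cut the DNA. A peak was assigned to a member gene when its summit lay in the gene's mm10 span or within 20 kb of either end. Peaks that overlapped in any of the lists were merged into loci, and a locus is said to be held by a list that has a peak in it. Of 101406 loci in all, 115 belonged to the 38 genes, from 729 of 924275 peaks. All but 1 of the members, 37 of 38, had at least 1 locus, and the exception was Sox17, a regulator of endoderm and blood vessels, which had none in any list.

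All cells came from tail epidermis of mice with the genotype Lrig1CreER/Rosa-TdTomato, in which Cre is driven from Lrig1, a gene of stem cells in the upper hair follicle, and marks cells with a red reporter. They are labelled Lrig1 GL, and Sca1+ cells were sorted to enrich for the upper follicle. The 20 libraries form 10 groups of 2, and the authors made 1 list from both libraries of a group. Of these, 4 form a wound time course: homeostasis without a wound, 1 week and 8 weeks after the first wound, and 1 week after the second wound. Another 4 are epidermis treated with vehicle, with PRT4165, with UVB, or with UVB and wounding. The vehicle and PRT4165 libraries are titled as unwounded. The last pair are cells put into culture, taken 8 weeks after the first wound by their titles, from a control region labelled non-memory and from a distal region labelled memory. The sources used here give no age, sex or dose, and do not say whether the libraries of a group came from separate animals. With 1 list per group there is no spread between replicates, so no difference below carries a test, and the counts for each comparison are set beside the same share over all loci.

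Polycomb group proteins work in 2 complexes. PRC2 methylates histone H3 at lysine 27, and PRC1 compacts chromatin and adds ubiquitin to histone H2A. PRT4165 is used as an inhibitor of that PRC1 ligase activity. In adult skin the classic targets are regulators of other lineages, such as nerve, muscle, kidney or heart, whose CpG-rich promoters are kept silent while the epidermal programme runs. A few of the members are also known from skin: Gata6 marks the upper follicle and sebaceous duct, Atoh1 and Isl1 are factors of Merkel cells, the touch receptors of the epidermis, and Pax3 is a factor of melanocytes.

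The promoters are shown first, because the CpG-rich start sites of the members seldom lay under a peak. Each window runs from 250 bases before to 50 bases after the start, 5′ to 3′ in the direction of transcription, from RefSeq on GRCm38.p6, the assembly of mm10. CpG dinucleotides are in capitals. The first 4 lay under a peak in at least 6 lists, and the last 2 lay under none. They are Pax9 at chr12:56695221-56695520 on the plus strand, Isl1 at chr13:116309639-116309938, Six2 at chr17:85688205-85688504, Lhx3 at chr2:26208200-26208499, Neurog1 at chr13:56252131-56252430 and Lhx1 at chr11:84525485-84525784, the last 5 on the minus strand.
Pax9: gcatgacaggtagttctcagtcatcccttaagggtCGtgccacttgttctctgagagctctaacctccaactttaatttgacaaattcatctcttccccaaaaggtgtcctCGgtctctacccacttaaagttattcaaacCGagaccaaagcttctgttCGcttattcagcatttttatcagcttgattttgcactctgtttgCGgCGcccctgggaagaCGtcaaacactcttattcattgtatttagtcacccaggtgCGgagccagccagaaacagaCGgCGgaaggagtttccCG
Isl1: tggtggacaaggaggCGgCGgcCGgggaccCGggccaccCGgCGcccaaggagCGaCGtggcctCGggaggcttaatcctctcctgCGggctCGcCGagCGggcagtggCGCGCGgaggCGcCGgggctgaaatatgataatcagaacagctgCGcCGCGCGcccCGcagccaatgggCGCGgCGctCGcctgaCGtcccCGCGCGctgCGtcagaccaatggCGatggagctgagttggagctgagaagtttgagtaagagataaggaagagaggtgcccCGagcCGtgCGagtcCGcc
Six2: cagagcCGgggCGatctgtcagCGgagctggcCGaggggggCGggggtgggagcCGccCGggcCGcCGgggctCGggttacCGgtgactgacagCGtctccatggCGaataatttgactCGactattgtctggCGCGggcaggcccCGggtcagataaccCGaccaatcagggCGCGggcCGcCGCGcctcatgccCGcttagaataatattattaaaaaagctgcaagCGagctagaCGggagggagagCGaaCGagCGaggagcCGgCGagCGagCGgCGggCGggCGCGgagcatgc
Lhx3: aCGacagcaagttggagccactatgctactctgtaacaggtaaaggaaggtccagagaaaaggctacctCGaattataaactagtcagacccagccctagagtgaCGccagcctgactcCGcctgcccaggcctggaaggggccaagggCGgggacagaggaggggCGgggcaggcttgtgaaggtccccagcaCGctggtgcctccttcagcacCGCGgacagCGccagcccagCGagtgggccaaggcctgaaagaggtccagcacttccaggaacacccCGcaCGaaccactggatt
Neurog1: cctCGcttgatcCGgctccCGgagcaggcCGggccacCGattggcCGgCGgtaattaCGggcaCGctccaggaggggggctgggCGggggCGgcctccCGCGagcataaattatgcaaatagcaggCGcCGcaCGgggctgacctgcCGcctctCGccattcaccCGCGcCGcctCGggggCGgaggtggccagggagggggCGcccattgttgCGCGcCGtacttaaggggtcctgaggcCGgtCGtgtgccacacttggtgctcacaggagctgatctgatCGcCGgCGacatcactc
Lhx1: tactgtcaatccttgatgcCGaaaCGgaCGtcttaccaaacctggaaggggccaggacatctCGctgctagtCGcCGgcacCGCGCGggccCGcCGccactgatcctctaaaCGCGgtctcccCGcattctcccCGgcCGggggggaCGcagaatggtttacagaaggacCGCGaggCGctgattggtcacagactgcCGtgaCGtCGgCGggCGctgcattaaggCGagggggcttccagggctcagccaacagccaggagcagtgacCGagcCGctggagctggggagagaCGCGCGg

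Promoter entries were at hand for 29 of the 38 members, with 35 windows. Their median CpG count was 19, against 7 over all 32851 windows in the table, and their median GC content was 59.7% against 52.7%. A peak of at least 1 list lay over 9 of the 35 windows (25.7%), against 46.5% of all windows. In the range of 13 to 26 CpGs, which holds the middle of the members' values, 4 of 19 member windows (21.1%) lay under a peak, against 6361 of 7357 windows (86.5%) over all genes. In the same range no member window was under a peak in all 10 lists, against 63.9% of all windows. The 9 windows belonged to Pax9 (10 lists), Isl1 and Six2 (8 lists each), Lhx3 (6 lists), Neurog2 (3 lists), Hlx, Sox1 and Foxa1 (2 lists each) and Lhx4 (1 list).

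CpG number did not sort these windows. Isl1 and Six2 hold 37 CpGs each in the sequences above, Pax9 holds 11 and Lhx3 holds 13. Neurog1 with 32 and Lhx1 with 31 had no peak over the window in any list, and neither did Nkx6-1 with 40, the highest count among the members. The other Lhx3 window, with 28 CpGs, lay under no peak either. The letters of a GC box (GGGCGG, either strand) were in 65.7% of member windows and 35.7% of all windows, and those of a CCAAT box (CCAAT, either strand) in 51.4% and 37.4%. The AP-1 motif (TGANTCA, either strand) was in 2 member windows, those of En1 and Lhx4 (5.71%), against 7.81% of all windows. Member windows with a peak and without one carried the GC box at nearly the same share, 66.7% and 65.4%.

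**Figure D1:**
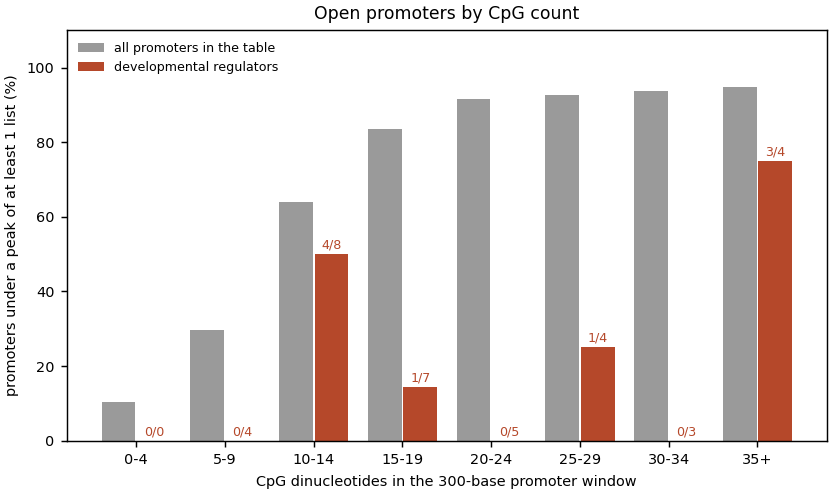
Share of promoter windows of 300 bases under a peak of at least 1 list (vertical axis, %) by the number of CpGs in the window (horizontal axis), for all windows in the RefSeq table (grey) and for the members (red, with the number under a peak over the number of windows). The grey share is 83.6% at 15 to 19 CpGs and 91.5% at 20 to 24, where 1 of 7 and 0 of 5 member windows lie under a peak; only at 35 or more CpGs do most member windows (3 of 4) do so.

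The lists held between 33788 and 71677 loci, and their deposited score was at least 540 in every list. The homeostasis and wound time course lists were the 4 with the fewest peaks but for the first wound at 1 week, which had more peaks than the cultured distal list. A start peak is one with a summit within 1 kb of a start. For genes without a promoter entry, such as Gata6, an end of the span counted instead. Keratinocyte markers had a start peak for 2 to 5 of 6 genes per list, and markers of the upper follicle for 3 to 5 of 5, with Lrig1, Plet1 and Gata6 in every list. Merkel cell markers had one for 0 to 5 of 7, melanocyte markers for 2 to 4 of 8, fibroblast markers for 1 to 3 of 8, endothelial markers for 0 to 2 of 6, myeloid markers for 1 to 4 of 7, and T cell markers for 0 to 1 of 7. Peaks at the Y-linked genes Ddx3y, Uty and Eif2s3y occurred in 5 lists (those taken 1 week after either wound, UVB with wounding and both cultured lists) but in none of the other 5, so that sex and group cannot be told apart in comparisons between these sets of lists.

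Per list, the members held 24 loci in homeostasis, 34 at 1 week and 22 at 8 weeks after the first wound, and 24 after the second wound. Vehicle held 63, PRT4165 held 62, UVB held 70 and UVB with wounding held 57. The cultured control cells held 61 and the cultured distal cells 54. Longer lists held more of them: the 8-week list, the shortest with 33788 loci, had the fewest, and the UVB list, the longest, had the most. Per 1000 loci of the list the members held between 0.584 (second wound) and 0.977 (UVB) in the 8 lists from sorted skin, 1.15 in cultured control and 1.21 in cultured distal cells. The cultured lists were highest relative to length, and the same held for 32 other developmental regulators, such as Irx3 and Tbx3, with 1.08 and 1.1 in culture and 0.592 to 1.03 elsewhere. The 39 Hox genes held 0.71 to 1.05, so that both of these lists overlapped the members. Epidermal regulators, 20 factors such as Klf4 and Grhl1, held 2.3 to 2.78 loci per 1000, and 23 Polycomb subunit genes held 1.56 to 1.71; neither range overlapped that of the members. These values were not divided by the number of genes or the length of DNA searched, which differ between the gene lists. They compare peak lists within 1 set of genes, and do not show which set of genes was more accessible.

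**Figure D2:**
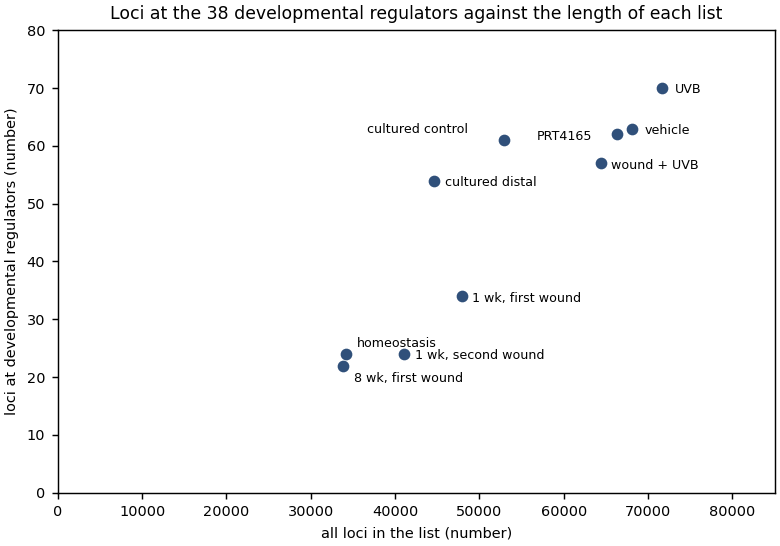
Number of loci at the 38 developmental regulators (vertical axis) against the number of all loci in the list (horizontal axis), 1 point per peak list. The cultured lists, with 61 and 54 loci, lie above the first wound list at 1 week (34 loci), although that list has a length between theirs.

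Fewer lists held a member locus than an average locus. The median member locus was held by 3 lists, the median of all loci by 5. Of the 115 loci, 31 (27%) were held by 1 list, against 17.1% of all loci, and 12 (10.4%) by all 10 lists, against 18.8%. No list of the wound time course or homeostasis held 79 of them (68.7%), against 46.7% of all loci, and all 4 of those lists held 14 (12.2%), against 25.7%. Member loci were also narrower, with a median width of 497 bases against 608. When loci were ranked within each list by the authors' signal value, a measure of enrichment in the peak, the median rank of member loci was 45.5% against 51.2% for all loci, where a high rank is a strong peak.

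The summit lay inside a member gene at 52 loci and outside at 63, and 25 loci had a summit within 1 kb of the start or, for the 9 members whose start is not in the table, of an end of the gene. At 14 loci the nearest protein-coding gene was another one, and 10 of these summits lay inside that gene: 4 loci counted for Pax8 were nearest to Psd4 and 4 counted for Gata4 were nearest to Neil2. The 20 kb limit decided on loci close to it. A locus 19853 bp from Six2 was counted, with signal values of 6.8 to 13.4 in 10 lists, and so was one 19876 bp from Pax2, held by 1 list. A locus 20365 bp from Pax7 (11.5 to 21.7 in 10 lists) and one 20553 bp from Gata4 (14.1 to 23.5 in 10 lists) were not, though their signal values were higher.

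A summit near the start lay within 1 kb of a start or, for genes without a promoter entry, of either end of the span. Per list, 4 to 16 of the 38 members (10.5 to 42.1%) had a summit near the start, against 48 to 59.6% of 21883 protein-coding genes. Of the members, 21 (55.3%) had one in at least 1 list, against 63.1% of all genes, and only Pax9 and Gata6 had one in all 10 (5.26% against 43.8%). Among epidermal regulators 14 of 20 had one in all 10 lists, among Polycomb subunits 18 of 23, among 39 Hox genes 5, and among 32 other developmental regulators 5, for example Irx3, Irx5 and Tbx3. As a share, the members' 5.26% lay nearer to the Hox genes (12.8%) and the other developmental regulators (15.6%) than to the epidermal regulators (70%). Promoter entries were at hand for 29 of the 38 members, 22 of the 39 Hox genes and 18 of the 32 other developmental regulators. They were at hand for 10 of the 20 epidermal regulators, 19 of the 23 Polycomb subunits and 17491 of the 21883 protein-coding genes. The shares thus rest on starts and span ends to unlike degrees.

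**Figure D3:**
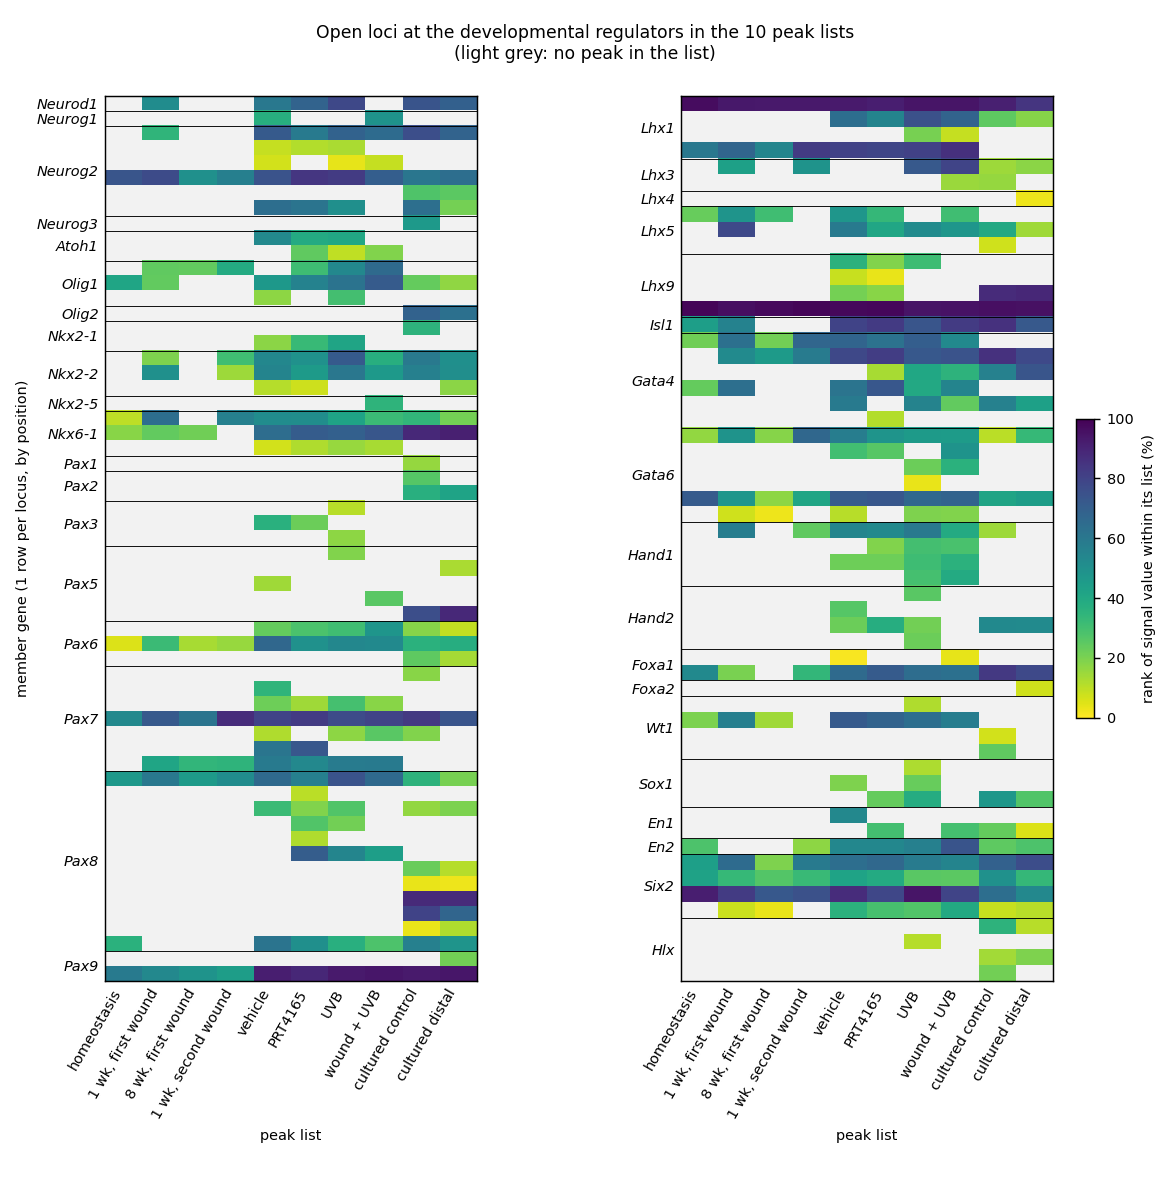
Each row is 1 of the 115 loci, ordered by position within its gene, and each column 1 of the 10 peak lists; colour is the rank of the locus by signal value within the list (100% is the strongest), and light grey marks a list with no peak. Only 12 rows are filled in all columns, and 79 rows are empty in the first 4 columns.

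The neural basic helix-loop-helix genes, which commit precursors to neuron or glial fates, had 15 loci. Neurog2, a neurogenin, had 6 of them. Its locus 1.1 kb inside the transcript was held by all 10 lists, with signal values of 11.7 in homeostasis, 12.4 at 1 week, 9.3 at 8 weeks, 10.1 with the second wound, 12.8 with vehicle, 15.6 with PRT4165, 15.8 with UVB, 14.4 with UVB and wounding, and 10.5 and 11.4 in cultured control and distal cells. The separate locus at the start itself was held only with vehicle (4.5), UVB (3.8) and UVB with wounding (5.3), all within the lowest 10% of their lists by rank. With the summits of both loci counted, 7 lists had a summit within 1 kb of the start. The strongest of the other Neurog2 loci, 7.7 kb upstream, was held by 7 lists at 7.6 to 13.4 and was absent from homeostasis, 8 weeks and the second wound.

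Olig1, a factor of the oligodendrocyte lineage, had a peak near its end of the span in 8 lists: 8.2 in homeostasis, 6.7 at 1 week, 8.7 with vehicle, 10.2 with PRT4165, 11.5 with UVB, 14.6 with UVB and wounding, 6.5 in cultured control and 6.3 in cultured distal cells. The 8-week and second wound lists lacked it. Atoh1, the determinant of Merkel cells, had no locus in the time course or in culture. Its locus 0.4 kb inside the gene was held with PRT4165 (6.8), UVB (5.0) and UVB with wounding (7.0), and the one 1.2 kb upstream with vehicle (9.4), PRT4165 (8.2) and UVB (8.6). Of the 7 Merkel cell markers, of which Atoh1 is 1, the vehicle list had start peaks for Sox2, Isl1 and Piezo2, PRT4165 and UVB for these and Atoh1, and UVB with wounding for these, Atoh1 and Krt18. Krt8 had one in none of these lists and Krt20 in no list at all; the part of Merkel cells in the Atoh1 peaks was not tested. In lists from many cells, a rare cell type and a weakly accessible site in all cells cannot be told apart. Neurod1 had 1 locus in 6 lists (9.1 to 14.7), Neurog1 1 in 2 lists, Olig2 1 in the 2 cultured lists (11.8 and 11.2) and Neurog3 1 in cultured control cells (8.6).

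The NK homeobox genes pattern the neural tube, thyroid, lung, heart and pancreas. Nkx6-1, a regulator of motor neurons and of insulin-producing cells, had a locus 0.7 kb upstream of its start in 9 lists: 6.4 in homeostasis, 6.7 at 1 week, 7.1 at 8 weeks, 11 with vehicle, 12.6 with PRT4165, 12.8 with UVB, 15 with UVB and wounding, 16.5 in cultured control and 17.5 in cultured distal cells. The second wound list alone lacked it. Within their lists these peaks ranked at 17.7% in homeostasis and 91.3% in cultured distal cells. Nkx2-2, which specifies ventral neurons, had 3 loci, none within 1 kb of the start. Of these, the pair 8.1 and 7.7 kb from the start were each held by 8 lists, at 6.3 to 13.2 and 6.3 to 11.3, and both were absent from homeostasis and 8 weeks. Nkx2-1 had 2 loci in 4 lists and Nkx2-5 1 locus with UVB and wounding (9.0).

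The Pax genes, paired-box factors of many organs, had 35 loci, and 13 of them were held by 1 list. Pax9, which acts in tooth, palate and thymus, had the highest-ranked start locus of all members, with a median rank of 90.1%. Its locus 0.1 kb inside the transcript was held by all lists, with 9.9 in homeostasis, 9.3 at 1 week, 9.3 at 8 weeks, 8.9 with the second wound, 17.9 with vehicle, 17.2 with PRT4165, 19.7 with UVB, 22.1 with UVB and wounding, 18.3 in cultured control and 18.7 in cultured distal cells. The signal value of each list is on the authors' own scale for that list, so such values are given to describe a peak and show no change between lists.

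Pax7, the factor of muscle stem cells, had 7 loci and none near its start. Its locus 35.4 kb inside the gene was held by all lists (9.3 in homeostasis, 11.6 at 1 week, 10.5 at 8 weeks, 15 with the second wound, 14.1 with vehicle, 15.1 with PRT4165, 14.5 with UVB, 16.7 with UVB and wounding, 15 and 13.0 in culture). Pax3, the melanocyte and neural crest factor, had 3 loci, and the one at its end of the span was held by UVB alone (5.1). Of the other 7 melanocyte markers that list had a start peak for 3 (Mitf, Dct and Pmel), as did the 8-week, PRT4165 and UVB with wounding lists. Pax6, the eye regulator, had 3 loci, of which the one 6.5 kb from a start was in all lists (5.0 to 11.3). Pax5, a B cell factor with a gene of 185.9 kb, had 5 loci, of which 4 were in 1 list each. Pax2 had 2 loci and Pax1 had 1, all from culture.

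Pax8, which acts in thyroid and kidney (chr2:24420551-24475599), had 12 loci, the most of any member, and none within 1 kb of its start. The locus at 69.7 kb, nearest to Psd4, was in all lists (8.7 in homeostasis, 10 at 1 week, 9.0 at 8 weeks, 9.5 with the second wound, 11.2 with vehicle, 10.3 with PRT4165, 13.9 with UVB, 13.5 with UVB and wounding, 7.6 and 6.6 in culture). Inside the gene the 2 cultured lists shared 5 loci that no other list held. The strongest, at 35.3 kb from the start, had 16.4 in control and 16.1 in distal cells, at ranks of 88.1 and 87.5% of those lists, and the one at 22.2 kb had 14.0 and 11.9. The other 3, at 19.9, 36.1 and 40.8 kb, had values of 4.2 to 6.4, low in both lists.

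**Figure D4:**
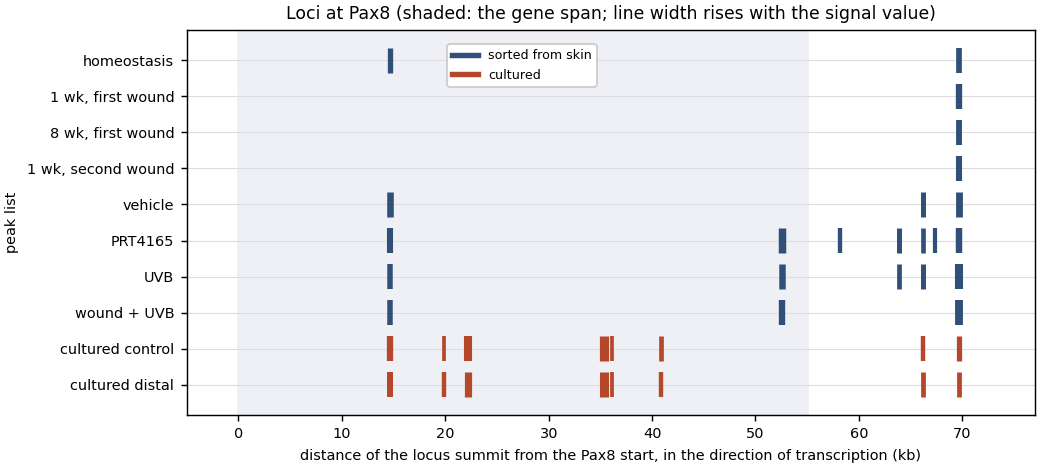
Loci of Pax8 by the distance of the summit from the gene's start (horizontal axis, kb) in each peak list (rows); the shaded band is the gene, blue marks lists from sorted skin, red marks cultured cells, and line width rises with the signal value. The 5 loci between 19.9 and 40.8 kb are marked in the 2 cultured rows alone, and the locus at 69.7 kb in every row.

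The LIM homeobox genes specify neurons, limb, kidney and gonad. Isl1, a factor of motor neurons and Merkel cells, had a single locus, over its start, in 8 lists: 8.5 in homeostasis, 9.5 at 1 week, 14.0 with vehicle, 15.3 with PRT4165, 13.7 with UVB, 17.4 with UVB and wounding, 15.6 in cultured control and 12.7 in cultured distal cells. It was absent at 8 weeks and after the second wound, the same lists that had no peak near the start of any of the 7 Merkel markers, Isl1 among them; the part of Merkel cells in it was not tested. A start of Lhx3, a pituitary and motor neuron factor, lay under a peak in 6 lists. Values were 8.3 at 1 week, 9.3 after the second wound, 13.3 with UVB, 16.5 with UVB and wounding, and 5.7 and 6.3 in culture. Homeostasis, 8 weeks, vehicle and PRT4165 lacked this peak. The other promoter entry of Lhx3 lay under no peak.

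Lhx5, a forebrain factor, had a locus 0.5 kb from an end of its span in 7 lists: 12.5 at 1 week, 10.2 with vehicle, 8.5 with PRT4165, 10 with UVB, 10.6 with UVB and wounding, 8.0 in cultured control and 6.0 in cultured distal cells. The other 3 time course lists lacked it. Lhx4 had 1 peak at its start, in cultured distal cells (4.3), and Lhx9, a gonad factor, one near its start with vehicle (4.7) and PRT4165 (4.1). The 2 highest-ranked of the loci held by all lists counted for Lhx9 and Lhx1 but lay 14.4 and 12.0 kb from those starts, nearest to the genes 2310009B15Rik and Aatf. Their signal values were 18.3 to 23.4 and 15.3 to 22.4. Lhx1, a kidney factor, had 3 more loci, among them one 14.3 kb upstream in the 8 lists from sorted skin (9.8 to 18.5) and in neither cultured list.

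The factors of endoderm and heart had 23 loci. Gata6 had a locus at an end of its span in all lists: 6.3 in homeostasis, 8.9 at 1 week, 6.8 at 8 weeks, 11.3 with the second wound, 10 with vehicle, 9.3 with PRT4165, 9.2 with UVB, 10.3 with UVB and wounding, 5.2 in cultured control and 7.8 in cultured distal cells. A second one, 15.4 kb from an end, was also in all lists (6.7 to 14.0). Its relative Gata4, a heart and gut factor, had 6 loci, of which the 4 nearest to Neil2 were held by 5 to 9 lists and the one near an end of the gene by PRT4165 alone (5.5). Foxa1, a factor of gut and other epithelia, had a locus 0.6 kb before its start in the promoter table, inside the gene span, in 9 lists: 9.3 in homeostasis, 6.3 at 1 week, 8.0 with the second wound, 11.2 with vehicle, 12.7 with PRT4165, 11.9 with UVB, 13.0 with UVB and wounding, 14.9 in cultured control and 13.8 in cultured distal cells. The 8-week list alone lacked it.

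Hand1 and Hand2, factors of the heart, had 4 loci each. A peak within 1 kb of an end of Hand1 was present with PRT4165 (6.3), UVB (7.4) and UVB with wounding (8.2), and one near the start of Hand2 with vehicle alone (6.6). No locus of Hand2 was held by any of the 4 time course lists. Foxa2, the relative of Foxa1, had 1 locus, in cultured distal cells (5.2).

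Of the remaining members, Six2, a factor of kidney progenitors, had 4 loci, and 3 of them were in all lists. Of these 3, the locus 45.6 kb from the start was nearest to another gene, Six3. The strongest, 23.1 kb from the start inside the gene, had 15.4 in homeostasis, 13.4 at 1 week, 11.9 at 8 weeks, 12.5 with the second wound, 16.2 with vehicle, 14.2 with PRT4165, 20.6 with UVB, 16.6 with UVB and wounding, 11 in cultured control and 9.9 in cultured distal cells. The locus over its start was in 8 lists at 4.9 to 9.6, absent from homeostasis and the second wound. En2, a midbrain factor, had 1 locus in 8 lists (6.6 to 15.2), absent at 1 and 8 weeks after the first wound. Sox1, a neural factor, had its start under a peak with vehicle (6.0) and UVB (6.7). Hlx had its start under a peak in both cultured lists alone (5.6 and 6.5), and Wt1, the kidney and gonad factor, had an end under a peak with UVB alone (5.4). En1 had 2 loci, away from the start, in 5 lists in all.

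One week after the first wound, compared with homeostasis, the members gained 12 loci and lost 2, with 22 shared. Gained means held by the first-named list and not the other, and lost the reverse, as a share of loci held by either: 33.3% and 5.56%, beside 31.5% and 4.03% over all loci. These shares lie near the background. The gained loci fell to 11 genes, with 3 loci at the neural helix-loop-helix genes, 3 at endoderm and heart genes, and 2 each at the NK and LIM genes. Nkx2-2 gained 2, at 6.3 and 9.0. The strongest gained peak was at Lhx5 (12.5), followed by Hand1 (9.7) and Gata4 (9.2). Pax8 and En2 lost 1 each. Of the 12 gained loci the vehicle list, from unwounded skin, held 10 (83.3%, against 86.1% of all gained loci). With vehicle as the control in place of homeostasis the members had 2 gained and 31 lost (3.08% and 47.7%), so the direction turned, as it did over all loci (3.33% and 32%).

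At 8 weeks the question was which loci differed from homeostasis long after the wound. The members gained 5 loci and lost 7 (17.2% and 24.1%), beside 14.9% and 15.8% over all loci. Gained were loci of Pax7 (8.0), Gata4 (9.0), Olig1 (7.2), Six2 (4.9) and Gata6 (4.7), and each was also held at 1 week, at 8.2, 9.2, 6.8, 5.0 and 4.9. Over all loci, 4666 of the 5962 gained at 8 weeks were held at 1 week as well. Lost were loci of Pax8, En2, Nkx6-1, Foxa1, Isl1, Gata4 and Olig1, whose homeostasis values were 5.6 to 9.3. Of these 7, those of Foxa1, Isl1 and Olig1 had their homeostasis summit within 1 kb of a start or end. With the stricter score, which keeps peaks at an irreproducible discovery rate of 0.01, 1 was gained and 5 were lost (6.67% and 33.3%), beside 11.3% and 19.8% over all loci. With vehicle as the control it was 1 and 42 (1.56% and 65.6%), beside 0.599% and 50.7%.

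After the second wound, compared with the first at the same time, the members gained 1 locus and lost 11 (2.86% and 31.4%), beside 7.74% and 20.9% over all loci. No group gained except through En2 (6.6). Lhx5 lost 2 loci, and Neurod1, Neurog2, Olig1, Nkx6-1, Isl1, Wt1, Gata4, Gata6 and Six2 lost 1 each, from values of 4.9 to 12.5. Loci of 5 of these members, Nkx6-1, Lhx5, Isl1, Olig1 and Six2, lay within 1 kb of a start or end. The Pax genes kept all of their 5 loci. Both this comparison and that with homeostasis use the list from 1 week after the first wound, so they are not independent. Over the 4 time course lists, 4 member loci (3.48%) were held at 1 week after both wounds and in neither other list, beside 4.45% of all loci: 2 of Nkx2-2, 1 of Lhx3 and 1 of Hand1. The first wound at 1 week alone of the 4 lists held 3 (2.61%), beside 6.46%: those of Neurod1, Neurog2 and Lhx5.

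PRT4165 was compared with its vehicle to see what differs when the inhibitor is applied. The members gained 11 loci and lost 12, with 51 shared (14.9% and 16.2%), beside 9.93% and 12.3% over all loci. Pax8 gained 4, all 52.6 to 67.3 kb from its start, of which the strongest had 12.6 and the others 5.3 to 7.1. Those at 58.2, 63.9 and 67.3 kb lay outside the gene, and the last 2 of these were nearest to Psd4. Single loci were gained at En1, Atoh1, Sox1, Hand1 and Olig1 and 2 at Gata4. Pax7 lost 2, which had 7.4 and 5.2 with vehicle. Start or end loci gained were those of Atoh1, Hand1 and Gata4, and those lost were of Neurog2, Sox1, Hand2, Foxa1 and Olig1. Of the losers, Neurog2, Foxa1 and Olig1 kept another summit within 1 kb of a start or end with PRT4165, and Sox1 and Hand2 did not. Members with such a summit numbered 13 with vehicle and 14 with PRT4165. The NK and LIM genes had neither gain nor loss at 17 loci. PRT4165 alone of all lists held 3 member loci, 2 of Pax8 and 1 of Gata4 (2.61%, beside 2.15%). The size of the balance depended on the threshold: with the stricter score 4 were gained and 18 lost (7.14% and 32.1%), beside 9.36% and 12.1% over all loci.

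UVB with wounding was compared with UVB alone to see what a wound adds. The members gained 8 loci and lost 21, with 49 shared (10.3% and 26.9%), beside 8.31% and 17.7% over all loci. Losses were at 12 genes on balance, and gains at 6. Hand2 lost 3 loci (7.0, 6.5 and 6.6 with UVB) and Sox1 3 (5.4, 6.7 and 8.3). Neurog2, Pax3 and Pax8 lost 2 each. The strongest peak lost was that of Neurod1 (14.7). The gained loci belonged to En1, Lhx3, Pax5, Lhx5, Foxa1, Neurog1, Nkx2-5 and Gata6, with values of 4.3 to 10.8. Y-linked peaks were in the wounded list alone of this pair. With the stricter score 7 were gained and 11 lost (14.3% and 22.4%), beside 7.63% and 17.5% over all loci. Within 5 kb it was 4 and 12 (8% and 24%), beside 7.79% and 16.3% of loci within 5 kb of any protein-coding gene. Both UVB lists and no other held 3 member loci (2.61%, beside 1.52%), those of Lhx1, Gata6 and Hand1.

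UVB against vehicle gave 20 gained and 13 lost (24.1% and 15.7%), beside 14.5% and 9.95% over all loci. Pax8, Hand1 and Sox1 had 2 more gained than lost, and Pax7 and Lhx9 2 more lost. The strongest gained peaks were at a start of Lhx3 (13.3), at Pax8 (10.4) and at Olig1 (10.3). With the stricter score the direction turned, to 6 gained and 16 lost (10.3% and 27.6%), beside 13.9% and 9.85% over all loci. This comparison shares the vehicle list with that of PRT4165.

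Vehicle and homeostasis are both unwounded skin by their titles, and this pair had the highest member share gained of the 8 comparisons. Vehicle had 39 member loci that homeostasis lacked and lacked 0 that it held (61.9% and 0%), beside 50.1% and 0.533% over all loci. Pax7 had 5 more, Neurog2 4, Nkx2-2 and Lhx9 3 each, and Gata4, Gata6, Hand1 and Hand2 2 each. The vehicle list is the longer, with 68073 loci against 34171. With both lists limited to equal numbers of peaks by signal value, 22 were gained and 0 lost (47.8% and 0%), beside 38.5% and 5.5% over all loci. List length and treatment cannot be told apart in this pair.

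**Figure D5:**
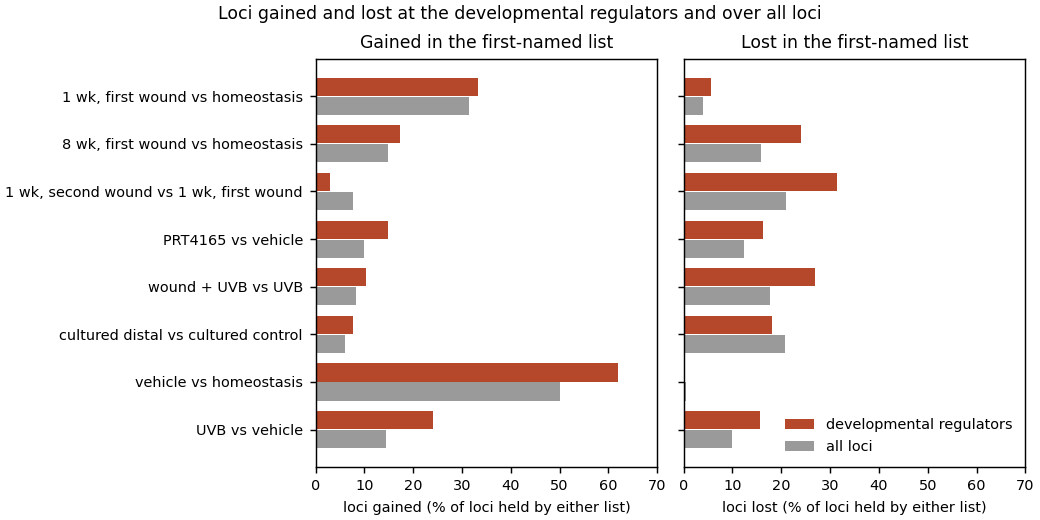
Loci gained (left) and lost (right) in the first-named list of each comparison, as a share of the loci held by either list (horizontal axes, %), for the developmental regulators (red) and all loci (grey). The red bars for loss are longer than the grey ones in 6 of the 8 comparisons, all but the cultured pair and vehicle against homeostasis. Those for gain are longer in 7 of the 8, all but the second wound against the first. The member share gained is highest for vehicle against homeostasis (61.9%).

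Cultured distal cells, labelled memory, were compared with cultured control cells. The members gained 5 loci and lost 12, with 49 shared (7.58% and 18.2%), beside 5.97% and 20.8% over all loci. Gained were loci of Lhx4 (4.3), Nkx2-2 (6.3), Foxa2 (5.2), Pax5 (5.9) and Pax9 (6.7). Pax7 and Wt1 lost 2 each, and the 12 lost peaks had values of 4.8 to 8.6 in control cells, the highest at Neurog3. Among loci within 5 kb of a member, 4 were gained and 3 lost (8.89% and 6.67%), so the direction turned, beside 5.61% and 19.3% of loci within 5 kb of any protein-coding gene.

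A further pattern, chosen after the values had been seen, concerns the cultured cells as a pair. Both cultured lists and no other list held 12 member loci (10.4%), beside 7.75% of all loci, and at least 1 cultured list and no other held 25 (21.7%), beside 13.8%. The 12 were 5 of Pax8, 2 of Hlx and 1 each of Pax6, Neurog2, Pax5, Olig2 and Pax2. The strongest after Pax8 was that of Pax5, 6.1 kb from its start, with 13.2 in control and 16.4 in distal cells, then that of Olig2. The 25 fell to 16 genes, and for Olig2, Neurog3, Pax1, Pax2, Lhx4 and Foxa2 the cultured lists held the only loci. In contrast, 8 member loci (6.96%) were held by vehicle, PRT4165, UVB and UVB with wounding and by neither cultured list, beside 17.2% of all loci. These belonged to Nkx6-1, Pax7, Lhx1, Wt1, Gata4 and Hand1. With the stricter score both cultured lists alone held 5 of 79 member loci (6.33%), below the 7.6% over all loci, and at least 1 cultured list alone held 15 (19%), beside 13.5%. Markers of other cells differed with culture too, in both directions. Krt8, Kdr, Csf1r and Trac had a start peak in both cultured lists and in no other. Tek, Cldn5, Dcn and Dct, among others, had one in some lists from sorted skin and in neither cultured list. Each cultured list had a start peak for 1 of 6 endothelial markers. Krt15, a basal keratin, had none in either cultured list, nor after the second wound, and Krt5 had none in cultured control cells. Start peaks of keratinocyte markers were also missing from sorted skin: Krt14 had one with vehicle alone, and Trp63 in no list. The part of other cell types in the culture-only loci was not tested.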

How the data were processed

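ATAC-seq of sorted epidermal cells was deposited as 10 peak lists on mm10, per the submitters' processing notes. The authors made each list from the 2 libraries of its group, and the list names speak of conservative peaks by irreproducible discovery rate. For the aligner, caller, filters, Tn5 shift and depth, nothing is given in the sources used here. The deposited columns used were the authors' score (540 or higher), their signal value of enrichment, used to describe and rank peaks within a list, their −log10 p of each peak (2.00 or higher), and the summit.

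Overlapping peaks (at least 1 bp) were merged over the 10 lists with Python 3.11.15, numpy 2.4.6 and pandas 2.3.3. The counting of gained and lost loci was tested on a copy of the homeostasis list with known loci removed and intervals added. The merging was checked against bedtools. Gene spans and promoters were RefSeq's. Of all loci, 13.5% lay within 1 kb of a start, and 3.37% after a shift by 100 kb. Chosen for description were members with a locus near the start and members with a balance of at least 2 in a comparison. The 10 highest-ranked loci held by all lists were chosen as well. Signal values were given by list for some of these loci and as ranges for others. Members and gene lists were chosen with earlier results of these data known. Alternatives were the overlap, score, list length, distance, nearest gene and control list.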

Additional observations from a re-analysis of the deposited data

How the results depend on the processing

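No paired analysis was possible because each group has 1 list that joins both of its libraries, which leaves no library with values of its own and none to leave out. Of 70 alternative values, 42 kept their direction within 1.5 times the reported count, 25 moved further and 3 turned. Gained minus lost is given here. For 1 week against homeostasis (10) it was 4 within 5 kb, 19 within 50 kb and -29 with vehicle as control. For 8 weeks (-2) it was -4 with the stricter score, -6 within 5 kb and -41 with vehicle as control. For PRT4165 (-1) it was 0 with an overlap of at least 50% of both peaks, -14 with the stricter score, -2 within 5 kb, -5 within 50 kb and -4 where a member had to be the nearest gene. For UVB with wounding (-13) it was -4 with the stricter score and -8 within 5 kb. For cultured distal cells (-7) it was -12 with the stricter score, 1 within 5 kb and -14 within 50 kb. For vehicle against homeostasis (39) it was 22 at equal length and 62 within 50 kb. For UVB against vehicle (7) it was -10 with the stricter score, 2 within 5 kb and 4 by nearest gene. The second wound against the first (-10) stayed within 1.5 times under each alternative run. The median number of member loci per list (55.5) was 35 with the stricter score and 93 within 50 kb. Loci in both cultured lists alone (12) were 5 and 23, and those in at least 1 (25) were 15 and 42, or 15 within 5 kb; these 2 counts and their alternatives were chosen after seeing the data. Larger and smaller windows hold more and fewer loci (193 and 73 against 115); the cause of the other shifts was not tested. Depth is unknown, so a locus missing from a list may be one that its libraries could not show.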
